A study of Homo sapiens with 6 samples.

Results

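The 60 genes described here are the secreted Wnt ligands, the enzymes that process them, their receptors and co-receptors, the R-spondin arm, the secreted and surface antagonists, and the core and feedback genes of the pathway, chosen by name, with earlier results of these data known, out of 58735 named genes in the deposited count table. Each was assigned to a role, giving 18 ligands, 2 processing genes, 14 receptors and co-receptors, 4 genes of the R-spondin arm, 10 antagonists, 7 cytoplasmic core and feedback genes and 5 nuclear factors. The study compared LS174T cells labelled as deficient in FXYD3 with wild-type (WT) LS174T cells, with 3 poly(A) RNA libraries in each group. LS174T was derived from a human colorectal adenocarcinoma and carries the label goblet-like, and FXYD3 encodes a small membrane protein that associates with the sodium pump. The series title asks how FXYD3 in goblet cells bears on the mucus barrier. The labels name no treatment and no time point, and describe neither the edit, nor whether the FXYD3-deficient cells are 1 clone, nor whether a group's 3 libraries represent independent cultures. The p-values below therefore reflect library-to-library spread alone, part of which may be technical. In such bulk libraries fewer cells of a type and less RNA per cell cannot be told apart.

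Wnt proteins are lipid-modified by the acyltransferase Porcupine, carried to the cell surface by Wntless and bound there by Frizzled receptors together with the co-receptors LRP5 and LRP6. Receptor binding stops the destruction complex of APC, AXIN and GSK3B from marking beta-catenin for degradation, and beta-catenin then acts with TCF and LEF factors on target genes, several of which encode inhibitors of the same pathway. In the colon the pathway maintains the stem cells of the crypt, and most colorectal cancers, LS174T among them through a mutation of beta-catenin itself, carry a lesion that activates it downstream of the receptors.

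The libraries held between 15417232 and 19453217 counts assigned to named genes. FXYD3 itself (chromosome 19, 35115879 to 35124324, plus strand) was not lower in the knockout-labelled libraries. It had 5.11, 6.7 and 5.06 CPM (counts scaled to the TMM-adjusted library total) there, against 3.12, 5.11 and 3.42 CPM in WT libraries, a log2 fold change of 0.54 (95% interval 0.12 to 0.95, adjusted p = 0.0522, edgeR's quasi-likelihood test). The transcript level thus did not show the labelled deficiency, the protein was not measured in these files, and the group is called knockout-labelled throughout. FXYD3 shares 1292 of its 3334 exon bases with AC020907.6 on the same strand, which had 0 counts in both groups. The FXYD3 count may therefore miss reads from the shared part. The groups stood apart across all genes, with Pearson correlations of log CPM of 0.9892 to 0.9918 within groups and 0.9625 to 0.9671 between them. Colon epithelial markers summed to 10998 to 11762 CPM in knockout-labelled and 10130 to 11447 CPM in WT libraries, most of it KRT8, at 7328 and 6929 CPM on average. Of these 9 markers 1 was higher (LGALS4) and 2 were lower (CDX1 and CDH1). Of 9 goblet markers 7 were tested and 6 were lower (MUC2, TFF3, SPDEF, FCGBP, AGR2 and SPINK4), while ATOH1 did not pass (adjusted p = 0.43, edgeR). The untested CLCA1 had 13 counts in knockout-labelled and 2 in WT libraries, and ZG16 had 0 and 6. The goblet markers summed to 519 to 575 CPM against 714 to 889 CPM in WT libraries, most of it AGR2, at 461 and 680 CPM on average. The 8 fibroblast markers summed to 6.49 to 8.29 CPM against 1.29 to 2.11 CPM in WT libraries. COL3A1 made up 5.63 CPM of this on average in knockout-labelled and 0.313 CPM in WT libraries, and passed the low-count filter only through the knockout-labelled libraries. PDGFRB, the other fibroblast marker tested, did not pass the test (1.23 against 0.906 CPM in WT libraries, adjusted p = 0.469, edgeR), and COL1A2, PDGFRA and POSTN were at 0. No endothelial marker passed 0.298 CPM in any library and PECAM1 and KDR were at 0, and of 6 blood and immune markers PTPRC, CD3E and CD79A were at 0 and LYZ averaged 32.9 CPM against 32 CPM in WT libraries. Whether the shift in goblet markers or the difference in COL3A1 has a part in the Wnt gene differences was not tested.

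Of the 60 genes, 36 had enough counts to be tested, and 15 of these (41.7%) passed an adjusted p of 0.05, against 24.3% of all 15351 genes tested. The tilt was upward: 11 members were higher in knockout-labelled cells (30.6%, against 12.0% of all genes higher) and 4 were lower (11.1%, against 12.4% of all genes lower). Called changes that also reached 1 on the log2 scale were seen for 9 members (25%, against 6.1% of all genes by the same rule), 7 of them higher and 2 lower. The median log2 fold change of the tested members was 0.08, and that of all genes tested was 0.00. WNT6 and WNT10B passed the low-count filter only through the knockout-labelled libraries, so for these a difference was a condition of being tested. WNT16 at 0.373 CPM in WT replicate 3, and WNT4 at 0.512 and 0.298 CPM in knockout-labelled replicates 2 and 3, lay under the filter value of 0.585 CPM. The group in which each was lower would not have passed the filter alone. The largest shares of called members were among the antagonists, with 3 of 3 tested higher, the nuclear factors, with 2 of 4 higher and 1 lower, and the ligands, with 3 of 8 higher and 1 lower.

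**Figure D1:**
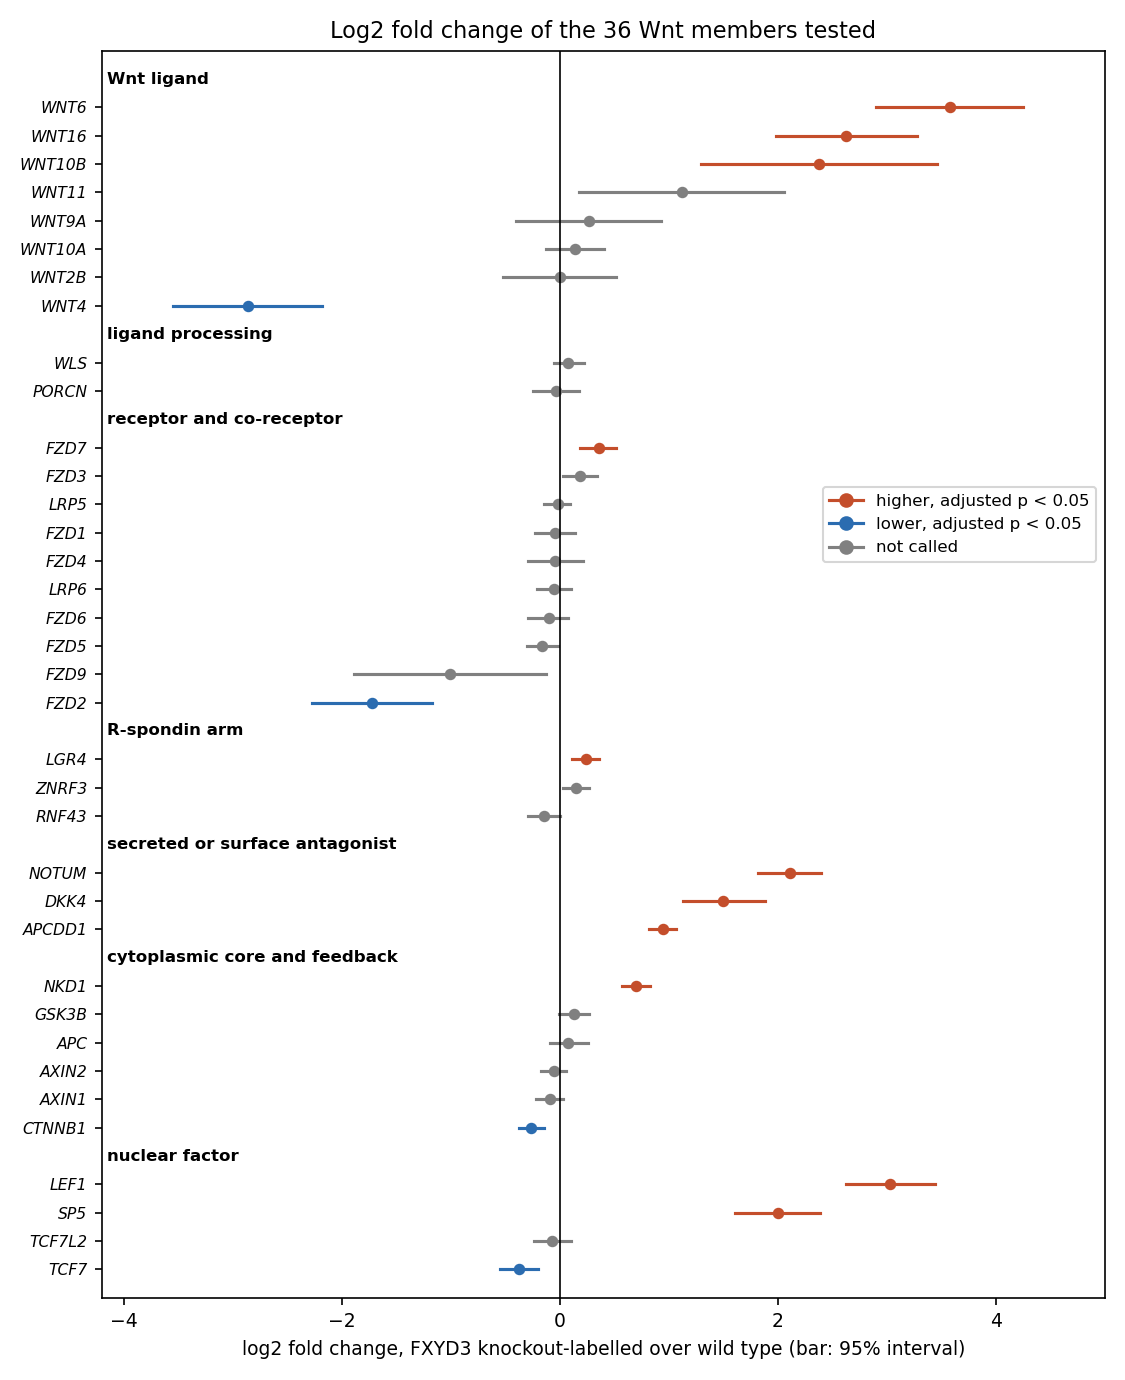
Log2 fold change (knockout-labelled over WT, horizontal axis) with its 95% interval for each of the 36 tested members, grouped by role. Red and blue mark members that were higher and lower at an adjusted p of 0.05, grey those that did not pass, and the called genes run from WNT6 at 3.58 to WNT4 at -2.86.

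Proximal promoters are shown for 3 genes that bear on these results: SP5, a known direct target of beta-catenin and TCF that was higher, DKK1, an inhibitor gene that is also a known target and had few counts, and WNT6, the ligand with the largest difference. The windows come from RefSeq on GRCh38.p14 and run from 250 bases before to 50 bases after the start site, for SP5 at chr2:170715087-170715386, for DKK1 at chr10:52314031-52314330 and for WNT6 at chr2:218859555-218859854, each on the plus strand and written 5′ to 3′. Capitals mark matches, on either strand, to CTTTGNN in which each N is A or T, the core that TCF and LEF factors bind.
SP5: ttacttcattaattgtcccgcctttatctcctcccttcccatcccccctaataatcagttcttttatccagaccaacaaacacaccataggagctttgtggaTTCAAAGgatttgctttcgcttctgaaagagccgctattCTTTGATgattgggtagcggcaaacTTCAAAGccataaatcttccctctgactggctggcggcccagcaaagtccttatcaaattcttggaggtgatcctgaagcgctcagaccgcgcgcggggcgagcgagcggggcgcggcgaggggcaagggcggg
DKK1: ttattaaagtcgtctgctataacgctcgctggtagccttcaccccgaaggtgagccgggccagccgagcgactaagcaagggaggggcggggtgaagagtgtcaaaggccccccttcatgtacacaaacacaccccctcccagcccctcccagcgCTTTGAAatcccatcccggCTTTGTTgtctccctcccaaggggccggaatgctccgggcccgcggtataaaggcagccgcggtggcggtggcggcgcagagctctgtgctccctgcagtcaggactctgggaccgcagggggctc
WNT6: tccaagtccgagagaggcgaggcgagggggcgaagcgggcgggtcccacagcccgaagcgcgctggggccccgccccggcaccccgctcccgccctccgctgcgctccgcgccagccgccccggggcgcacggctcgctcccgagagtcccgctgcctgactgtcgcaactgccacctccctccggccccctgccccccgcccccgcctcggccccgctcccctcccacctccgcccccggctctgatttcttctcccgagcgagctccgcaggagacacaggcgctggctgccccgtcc
The SP5 window held 3 matches, starting 148, 109 and 84 bases before the start site. That of DKK1 held 2, starting 95 and 76 bases before it, and that of WNT6 held none. Of the 60 genes 43 had a promoter entry, some more than 1, giving 53 windows, of which 5 (9.43%) held a match against 4829 (13.8%) of all 35116 promoters in the table. The other windows with a match were 1 each of TCF7, TCF7L2 and WNT3. Of the 10 windows of called members 2 (20%) held a match. AXIN2, NOTUM, NKD1, DKK4 and ZNRF3 were among the genes without an entry, so these shares do not cover them. The start site of the LEF1 window lay 2655 bases from the deposited gene start. CTTTGAT alone was in the window of SP5, which makes 1 of 53 (1.89%), against 919 (2.62%) of all promoters. In sequence terms the windows of these genes were richer in CpG than most: their median was 28 CpG in 300 bases, against 14 over all promoters, with 37 for WNT6 and 17 for SP5. A match is a description of letters in the window and shows no binding.

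Among the ligands, 3 were higher and 1 was lower in knockout-labelled cells. WNT6, a canonical ligand of epithelia, had 4.59, 4.66 and 3.57 CPM in knockout-labelled libraries, against 0.347, 0.281 and 0.435 CPM in WT libraries (chr2:218859821-218874233, plus strand; identifier ENSG00000115596). Every knockout-labelled library was well above every WT library, and the fold change was 11.9 (log2 3.58, SE 0.33, 95% interval 2.90 to 4.25, adjusted p = 2e-09, edgeR). These values rest on 60 to 91 counts per knockout-labelled library and 5 to 7 per WT library. WNT16, a ligand best known from bone, skin and joint tissue, had 3.36, 3.58 and 3.63 CPM in knockout-labelled libraries, against 0.694, 0.618 and 0.373 CPM in WT libraries, a 6.17-fold difference (log2 2.63, SE 0.32, 95% interval 1.98 to 3.28, adjusted p = 2.78e-07). The 3 knockout-labelled libraries lay close together and far above WT. WNT10B, a canonical ligand that restrains fat cell formation, had 0.84, 1.38 and 1.19 CPM in knockout-labelled libraries, against 0.0578, 0.337 and 0.248 CPM in WT libraries (log2 2.38, SE 0.53, adjusted p = 0.00122). Its counts were few, with 13, 27 and 20 counts in knockout-labelled and 1, 6 and 4 counts in WT libraries, and its 95% interval was wide at 1.30 to 3.46.

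WNT4, a ligand needed in kidney and female reproductive tract development, went the other way. It had 0.97, 0.512 and 0.298 CPM in knockout-labelled libraries, against 5.32, 3.48 and 4.04 CPM in WT libraries, and fell by 2.86 on the log2 scale (SE 0.33, 95% interval -3.55 to -2.18, adjusted p = 1.53e-07, edgeR). The lowest WT library was still above the highest knockout-labelled library. WNT10A, a canonical ligand of skin and tooth development and the most abundant ligand per length in both groups, had 10.3, 10.7 and 11.1 CPM in knockout-labelled libraries, against 9.54, 8.48 and 11.2 CPM in WT libraries. Its groups overlapped and its log2 difference was 0.14 (95% interval -0.13 to 0.41, adjusted p = 0.485). WNT6 lies 6129 bases from WNT10A in the deposited gene models. WNT11, a ligand known mainly for beta-catenin-independent signalling, had 0.905, 1.13 and 1.31 CPM in knockout-labelled libraries, against 0.347, 0.281 and 0.931 CPM in WT libraries, where the last WT library lay within the knockout-labelled range (log2 1.12, adjusted p = 0.0778). WNT9A and WNT2B, the other tested ligands, had log2 differences of 0.27 (adjusted p = 0.608) and -0.00 (95% interval -0.52 to 0.52). WNT2B shares 2661 of its 12561 exon bases with ST7L on the opposite strand, so its counts depend on how strand was treated.

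On the scale of CPM per kilobase of gene model, the ligands summed to 8.43, 8.67 and 8.3 in knockout-labelled libraries, against 5.15, 4.42 and 5.59 in WT libraries. WNT10A made up 37.1% of this sum in knockout-labelled and 56.5% in WT libraries. WNT6 made up 29.6% in knockout-labelled libraries and 4.12% in WT, and WNT16 12.7% and 3.41%. WNT4 had the reverse place, with 1.55% in knockout-labelled and 18.8% in WT libraries. The ligand next to WNT10A in abundance was thus WNT6 in knockout-labelled cells and WNT4 in WT cells. The remaining 10 ligands were not tested: WNT2, WNT3, WNT3A, WNT5A and WNT9B had no count in any library, and WNT1, WNT5B, WNT7A, WNT7B and WNT8B had at most 4 counts over the 3 libraries of either group. A count of 0 in the smallest library allows a level of up to 0.195 CPM, which covers counting error only, as do the intervals of pooled counts given below.

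**Figure D2:**
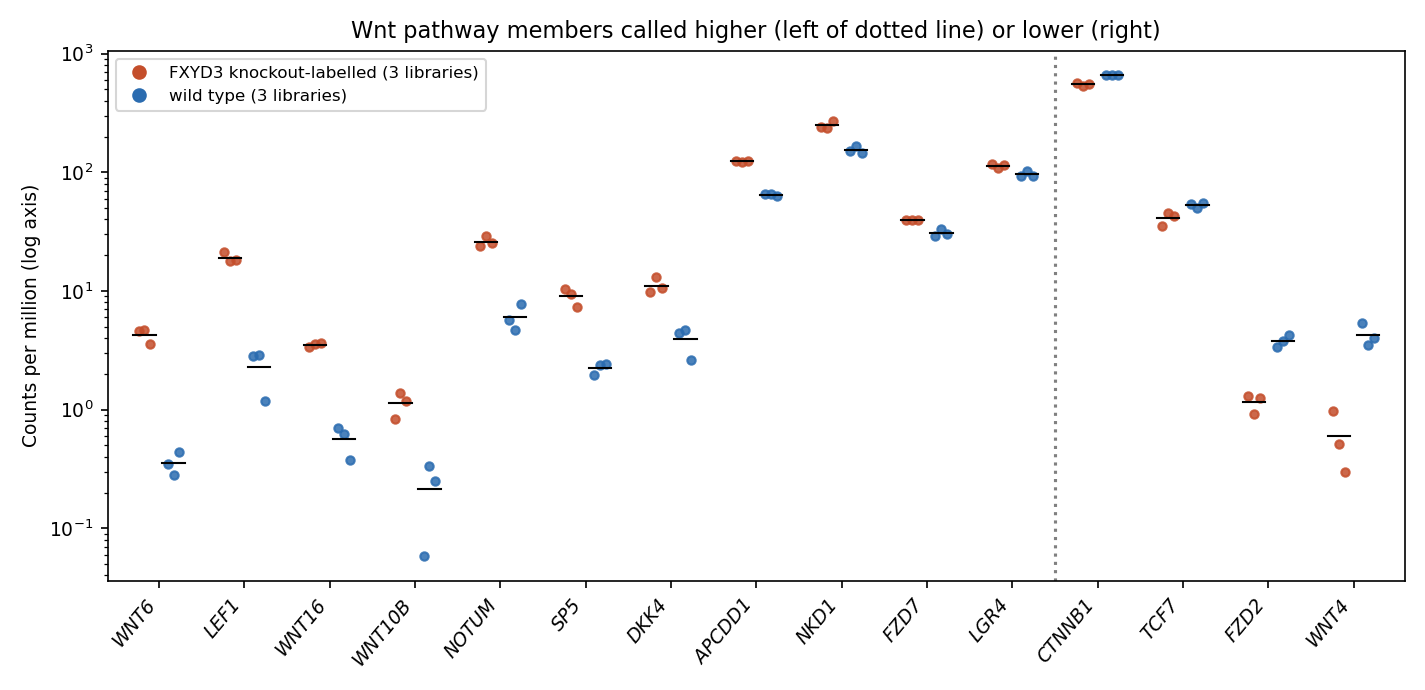
CPM on a log axis in each library for the 15 called members, knockout-labelled libraries (red) left of WT libraries (blue), with the group mean as a bar. WNT6, LEF1 and WNT16 have the largest log2 fold changes upward, at 3.58, 3.03 and 2.63, and WNT4 the largest downward, at -2.86.

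Ligand processing genes showed no change that passed the test. WLS, the carrier Wntless, had 74.7, 69.7 and 72.4 CPM in knockout-labelled libraries, against 72.0, 66.1 and 66.4 CPM in WT libraries, and PORCN, the acyltransferase, had 15.6, 17.6 and 16.6 CPM against 15.6, 17 and 18.6 CPM in WT libraries. Both pairs of groups overlapped, and the 95% intervals of the log2 difference were -0.05 to 0.22 for WLS and -0.25 to 0.18 for PORCN.

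Among the 10 tested receptors and co-receptors, 1 was higher and 1 lower. FZD2, a Frizzled receptor used in both beta-catenin-dependent and independent signalling, had 1.29, 0.921 and 1.25 CPM in knockout-labelled libraries, against 3.36, 3.76 and 4.22 CPM in WT libraries (chr17:44557459-44559570, plus strand). It fell by 1.72 on the log2 scale (SE 0.27, 95% interval -2.27 to -1.17, adjusted p = 1.71e-05, edgeR), with no overlap between groups. FZD7, a receptor with a known role in intestinal stem cells, had 39.9, 39.5 and 39.6 CPM in knockout-labelled libraries, against 29.3, 33.3 and 30.4 CPM in WT libraries, a 1.28-fold difference (log2 0.36, SE 0.08, 95% interval 0.19 to 0.52, adjusted p = 0.00133). The difference in FZD7 was small but exceeded the spread of both groups.

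The most abundant receptors did not pass the test. LRP5, the co-receptor with the highest level per kilobase, had 176, 175 and 184 CPM in knockout-labelled libraries, against 174, 187 and 182 CPM in WT libraries (log2 -0.02, 95% interval -0.14 to 0.09, adjusted p = 0.825). FZD5, the main Frizzled of these cells per kilobase, had 102, 93.7 and 103 CPM in knockout-labelled libraries, against 103, 122 and 109 CPM in WT libraries (log2 -0.16, 95% interval -0.30 to -0.02, adjusted p = 0.0849). FZD6, a Frizzled linked to planar polarity, had 48.9, 41.6 and 42.0 CPM in knockout-labelled libraries, against 47.8, 53.1 and 41.1 CPM in WT libraries (adjusted p = 0.45). The order LRP5, FZD5, FZD6 was the same in both groups, with 28.9, 14.9 and 10.9 CPM per kilobase in knockout-labelled and 29.3, 16.6 and 11.6 in WT libraries. LRP6, FZD1 and FZD4 had log2 differences of -0.05, -0.04 and -0.04, with overlapping groups, and FZD4 shares 1399 of its 7383 exon bases with PRSS23 on the opposite strand, so its counts depend on how strand was treated. PRSS23 itself was higher in knockout-labelled libraries (log2 0.95, adjusted p = 6.75e-12, edgeR). FZD3 was at 47.6 ± 3.01 CPM in knockout-labelled and 41.7 ± 1.27 CPM in WT libraries (SD, n = 3 each), without overlap, but did not pass the test (log2 0.19, adjusted p = 0.0739, edgeR). FZD9 was at 0.727 ± 0.437 CPM in knockout-labelled and 1.47 ± 0.579 CPM in WT libraries (SD, n = 3 each; adjusted p = 0.0901, edgeR).

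Receptors too low to test included ROR1 and ROR2, receptor tyrosine kinases that bind WNT5A. ROR2 had 0 counts over the 3 knockout-labelled libraries and 14 over the WT libraries (95% interval of that count 7.65 to 23.5). With the knockout-labelled count set at a limit of 3 and the WT count taken as exact, it was at least 4.72-fold lower. ROR2 passed the test with no filter on low counts (adjusted p = 0.0229, edgeR). ROR1 had 3 counts in knockout-labelled and 19 in WT libraries, a ratio of 0.156 (95% interval 0.0296 to 0.53). It passed neither with no filter on low counts (adjusted p = 0.101, edgeR) nor in DESeq2 (adjusted p = 0.163). Both had fewer counts in knockout-labelled cells, at levels under 1 CPM. FZD10 had 15 counts in knockout-labelled and 9 in WT libraries, and FZD8 had none in any library.

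In the R-spondin arm, which sets how much Frizzled stays at the cell surface, LGR4 was higher. LGR4, a receptor for R-spondins, had 117, 109 and 115 CPM in knockout-labelled libraries, against 93.1, 103 and 92.9 CPM in WT libraries, a 1.18-fold difference (log2 0.24, SE 0.06, 95% interval 0.11 to 0.36, adjusted p = 0.00562, edgeR). The groups were close but did not overlap, and without WT replicate 1 the adjusted p was 0.0577. ZNRF3, a ubiquitin ligase that removes Frizzled, had 156, 157 and 169 CPM in knockout-labelled libraries, against 142, 154 and 140 CPM in WT libraries (log2 0.15, 95% interval 0.03 to 0.27, adjusted p = 0.069). RNF43, the other ligase of this kind, had 61.1, 70.8 and 61.8 CPM in knockout-labelled libraries, against 72.1, 72.4 and 69.5 CPM in WT libraries (log2 -0.14, adjusted p = 0.149). These ligases leaned in opposite directions, and neither passed the test. RNF43 shares 4326 of its 7505 exon bases with AC004687.2 on the same strand, which can divert reads from it. RSPO3, the R-spondin ligand in the list, had no count in any library.

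All 3 antagonists among the members that could be tested were higher in knockout-labelled cells. Of the 12 tested surface and extracellular modifiers outside the members, 7 were lower and 1 was higher, as given below. APCDD1, a membrane glycoprotein that binds Wnt and LRP5, had 125, 123 and 125 CPM in knockout-labelled libraries, against 65.3, 66.2 and 62.7 CPM in WT libraries, a 1.93-fold difference (log2 0.95, SE 0.06, 95% interval 0.82 to 1.07, adjusted p = 1.6e-12, edgeR). NOTUM, the secreted enzyme that removes the lipid from Wnt proteins and is itself a target of the pathway, had 23.7, 28.8 and 25.2 CPM in knockout-labelled libraries, against 5.73, 4.66 and 7.7 CPM in WT libraries, a 4.32-fold difference (log2 2.11, SE 0.14, 95% interval 1.82 to 2.40, adjusted p = 1.87e-11). The groups did not overlap for either gene. DKK4, a secreted inhibitor that binds LRP5 and LRP6, had 9.76, 13 and 10.5 CPM in knockout-labelled libraries, against 4.45, 4.66 and 2.61 CPM in WT libraries, a 2.84-fold difference (log2 1.5, SE 0.18, 95% interval 1.13 to 1.88, adjusted p = 5.15e-07). The lowest knockout-labelled library was above the highest WT library. Summed over all 10 antagonists, the level was 40.4, 45.7 and 41.8 CPM per kilobase in knockout-labelled libraries, against 18.0, 17.9 and 16.1 CPM per kilobase in WT libraries.

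Of the 7 antagonists with too few counts to test, DKK1, which acts as DKK4 does, had 36 counts over the knockout-labelled libraries and 4 over the WT libraries, a ratio of 8.89 (95% interval 3.19 to 34.4). With no filter on low counts it passed the test (log2 3.01, adjusted p = 0.00276, edgeR), as it did in DESeq2 (adjusted p = 0.0224). WIF1, a secreted protein that binds Wnt ligands, had 26 counts in knockout-labelled and 5 in WT libraries, a ratio of 5.14 (95% interval 1.94 to 17.1), and did not pass with no filter (adjusted p = 0.0679, edgeR). SFRP5, a secreted Frizzled-like decoy, had 6 counts in knockout-labelled libraries and 1 in WT libraries. DKK3, a relative of DKK1 that is not a clear inhibitor of this pathway, had 5 and 6 counts, DKK2 had 1 and 0, and SFRP1 and SFRP2 had none in any library.

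Of the cytoplasmic core and feedback genes, 6 were tested, with 1 higher and 1 lower. CTNNB1, which encodes beta-catenin, had 567, 533 and 554 CPM in knockout-labelled libraries, against 659, 662 and 657 CPM in WT libraries (chr3:41194741-41260096, plus strand). It fell by 0.26 on the log2 scale (SE 0.06, 95% interval -0.37 to -0.14, adjusted p = 0.001, edgeR), a small difference that exceeded the spread of both groups. NKD1, a feedback inhibitor that binds Dishevelled, had 239, 238 and 272 CPM in knockout-labelled libraries, against 151, 165 and 146 CPM in WT libraries, a 1.62-fold difference (log2 0.70, SE 0.06, 95% interval 0.57 to 0.83, adjusted p = 1.91e-09). All 3 knockout-labelled libraries were above all 3 WT libraries.

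AXIN2, the feedback scaffold often used as a readout of beta-catenin activity, did not follow NKD1. It had 249, 265 and 263 CPM in knockout-labelled libraries, against 266, 279 and 262 CPM in WT libraries (log2 -0.05, SE 0.06, 95% interval -0.17 to 0.06, adjusted p = 0.538, edgeR). The groups overlapped, and the interval leaves out a rise of the size seen for NKD1, NOTUM or SP5. AXIN1, the constitutive scaffold, had 95.1, 108 and 106 CPM in knockout-labelled libraries, against 108, 108 and 114 CPM in WT libraries (adjusted p = 0.3). Within the destruction complex, APC and the kinase GSK3B had log2 differences of 0.08 (adjusted p = 0.528) and 0.13 (adjusted p = 0.193). NKD2, the relative of NKD1, had 5 counts in knockout-labelled and 9 in WT libraries and was not tested.

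Of the nuclear factors LEF1 and SP5 were higher and TCF7 was lower. LEF1, itself a target of the pathway, had 21.4, 17.7 and 18.2 CPM in knockout-labelled libraries, against 2.83, 2.87 and 1.18 CPM in WT libraries (chr4:108047545-108168956, minus strand). This was an 8.19-fold difference (log2 3.03, SE 0.19, 95% interval 2.63 to 3.44, adjusted p = 1.4e-10, edgeR). SP5, a zinc-finger factor and the gene whose promoter window held 3 core matches above, had 10.3, 9.36 and 7.33 CPM in knockout-labelled libraries, against 1.97, 2.36 and 2.42 CPM in WT libraries, a 4.0-fold difference (log2 2.0, SE 0.19, 95% interval 1.61 to 2.39, adjusted p = 3.3e-09). Both genes were low in every WT library and several times higher in every knockout-labelled library. TCF7, which like LEF1 has long forms that bind beta-catenin and short forms that do not, had 35.1, 45.3 and 42.4 CPM in knockout-labelled libraries, against 54.0, 50.3 and 55.1 CPM in WT libraries. It fell by 0.37 on the log2 scale (SE 0.08, 95% interval -0.55 to -0.20, adjusted p = 0.00156), and gene counts do not separate its forms. TCF7L2, the main family member of the intestinal epithelium, had 33.7, 37.5 and 33.8 CPM in knockout-labelled libraries, against 37.5, 39.1 and 33.9 CPM in WT libraries (log2 -0.07, 95% interval -0.24 to 0.10, adjusted p = 0.583). TCF7L1, often a repressor, had 16 counts in knockout-labelled and 29 in WT libraries (ratio 0.545, 95% interval 0.277 to 1.04) and was not tested.

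Per kilobase the family also stood differently in the groups. LEF1 was at 3.56 CPM per kilobase in knockout-labelled libraries, beside 4.07 for TCF7 and 5.20 for TCF7L2. In WT libraries LEF1 was at 0.428 CPM per kilobase, beside 5.28 for TCF7 and 5.47 for TCF7L2. LEF1 thus made up 20.6% of the summed level of the 5 nuclear factors in knockout-labelled and 3.45% in WT libraries, and TCF7 23.6% and 42.6%.

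**Figure D3:**
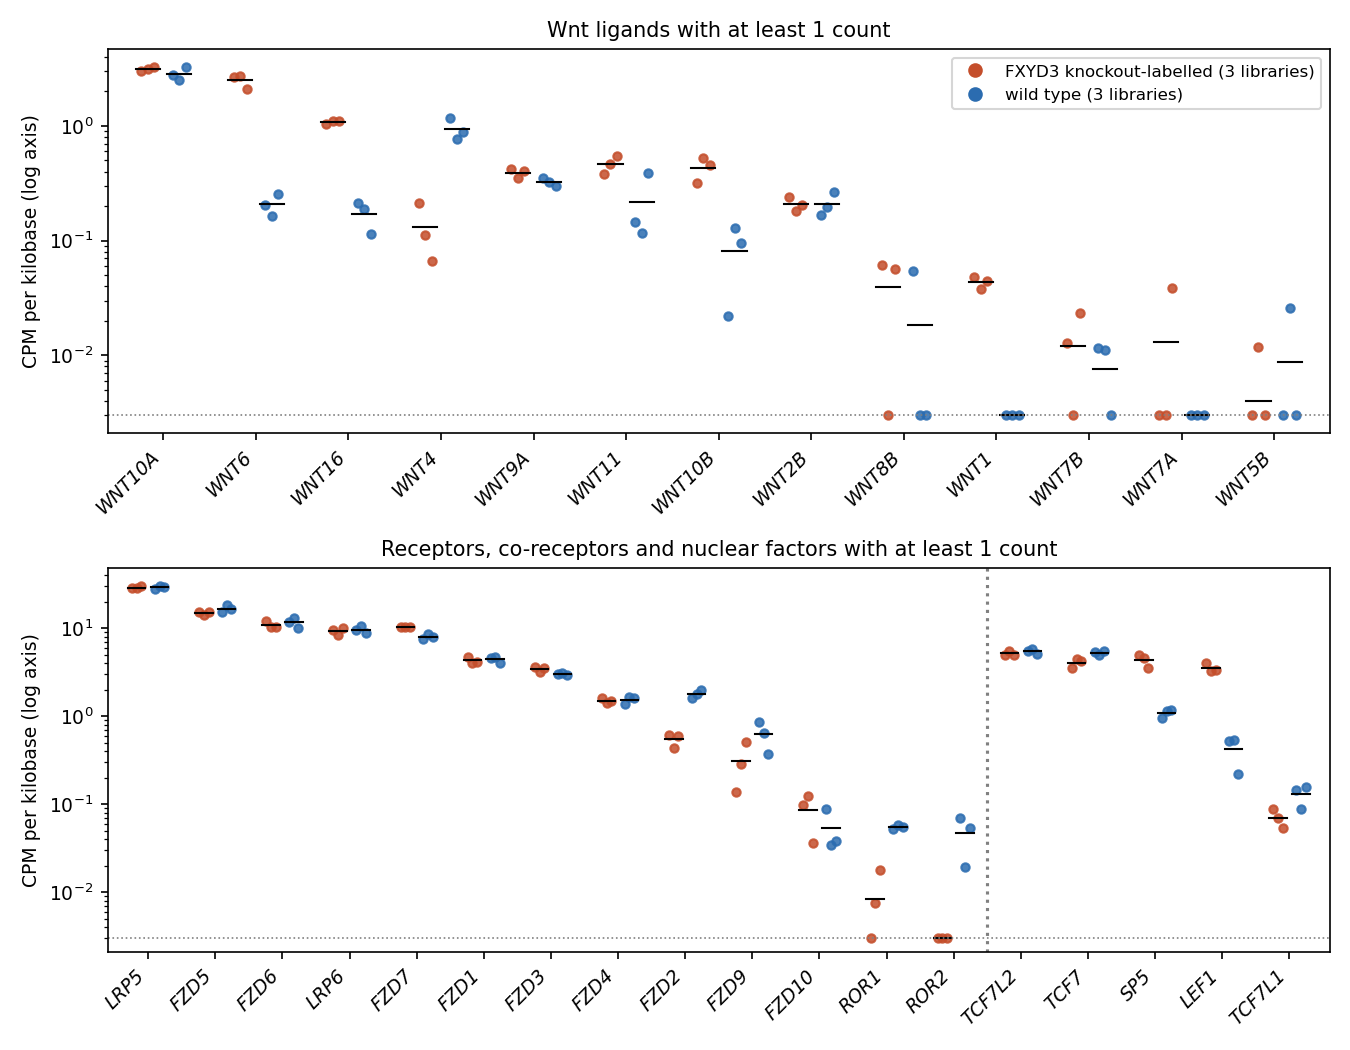
CPM per kilobase of gene model on a log axis in each library for the ligands (upper panel) and for the receptors, co-receptors and nuclear factors (lower panel) with at least 1 count, knockout-labelled libraries (red) left of WT libraries (blue), bars at the group mean and libraries with 0 counts at the dotted horizontal line. WNT10A is the highest ligand in both groups, at 3.14 in knockout-labelled and 2.85 in WT libraries, while LEF1 is at 3.56 in knockout-labelled and 0.428 in WT libraries.

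Across all 60 genes the highest levels per kilobase were those of AXIN2 and CTNNB1, with 49.6 and 46.2 CPM per kilobase in knockout-labelled and 51.4 and 55.3 in WT libraries. The length is that of the whole gene model, so the value of a gene whose transcripts use little of it is understated. The 6 members with folds of 4.0 or more, WNT6, LEF1, WNT16, WNT10B, NOTUM and SP5, averaged between 0.214 and 6.03 CPM in WT libraries. Several called members share a few exon bases with a gene on the opposite strand, which matters if counting ignored strand: LEF1 shares 279 with LEF1-AS1, TCF7 210 with SKP1, NKD1 67 with AC007608.1 and WNT4 55 with AL445253.1.

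The wider pathway was read from 4 lists of genes that are not members. Of 28 surface and extracellular modifiers 12 were tested, with 1 higher and 7 lower (66.7% called, against 24.3% of all genes), and their median log2 fold change was -0.29. LGR5, the R-spondin receptor that marks crypt stem cells, had 22.2, 19.9 and 23.2 CPM in knockout-labelled libraries, against 47.5, 50.2 and 45.5 CPM in WT libraries (log2 -1.14, adjusted p = 3.16e-11, edgeR), so its direction was opposite to that of its relative LGR4. LRP4, a relative of LRP5 and LRP6, had 55.7, 63.9 and 65.4 CPM in knockout-labelled libraries, against 120, 128 and 122 CPM in WT libraries (log2 -1.0, adjusted p = 4.6e-12). The heparan sulfate proteoglycan GPC4 was at 15.9 ± 1.48 CPM in knockout-labelled and 33.5 ± 1.48 CPM in WT libraries (SD, n = 3 each; adjusted p = 7.69e-10, edgeR). BAMBI, a pseudoreceptor that is also a target of the pathway, was the gene that was higher, at 25.5 ± 2.14 CPM in knockout-labelled and 15.5 ± 1.77 CPM in WT libraries (SD, n = 3 each, log2 0.72, adjusted p = 5.41e-06, edgeR). The other lower genes of this list are named after their values were seen. They were KREMEN1 (log2 -0.48, adjusted p = 4.85e-05, edgeR), IGFBP4 (-0.37, adjusted p = 3.76e-05), TRABD2A (-0.16, adjusted p = 0.0269) and RYK (-0.2, adjusted p = 0.0463).

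Of 39 intracellular signal transducers 34 were tested, with 5 higher and 3 lower (23.5% called, median log2 fold change -0.01), a share near that of all genes. The clearest difference was in TLE1, a Groucho co-repressor that binds TCF and LEF factors, which had 73.8, 75.8 and 75.1 CPM in knockout-labelled libraries, against 14.5, 13.3 and 15.5 CPM in WT libraries (5.19-fold, log2 2.37, SE 0.08, adjusted p = 3.03e-18, edgeR). TLE2 was also higher, at 5.9 ± 0.554 CPM in knockout-labelled and 2.26 ± 1.05 CPM in WT libraries (SD, n = 3 each; adjusted p = 8.48e-05, edgeR). CXXC4, an inhibitor that binds Dishevelled, was at 2.34 ± 0.457 CPM in knockout-labelled and 0.537 ± 0.298 CPM in WT libraries (SD, n = 3 each, adjusted p = 0.000151, edgeR), and APC2 at 23.3 ± 1.57 and 15.8 ± 0.898 CPM (log2 0.56, adjusted p = 8.66e-05, edgeR). For CXXC4, WT replicates 1 and 3, at 0.521 and 0.248 CPM, lay under the filter value of 0.585 CPM. The WT group alone would not have passed the filter for this gene. Outside the rule for named genes, and chosen after their values were seen, TLE3, a relative of TLE1, was lower (log2 -0.23, adjusted p = 0.0166), as was CTNNBIP1, an inhibitor that binds beta-catenin (log2 -0.31, adjusted p = 0.00813). Of 30 genes of planar polarity and other beta-catenin-independent signalling 19 were tested, with 2 higher, among them the polarity gene PRICKLE3 (log2 0.55, adjusted p = 0.000181), and 1 lower, the atypical cadherin CELSR3 (log2 -0.69, adjusted p = 1.44e-05). This was 15.8% called, against 24.3% of all genes, with a median of 0.03.

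Of 31 target genes of beta-catenin and TCF outside the members 29 were tested, with 8 higher and 14 lower (75.9% called, median log2 fold change -0.19). Of all genes tested 24.3% were called, 12.0% higher and 12.4% lower. LGR5 and BAMBI are also in this list of targets. EPHB3, an ephrin receptor of crypt cells, had 280.0, 315 and 294 CPM in knockout-labelled libraries, against 681, 696 and 698 CPM in WT libraries (log2 -1.22, adjusted p = 4.67e-15, edgeR). SMOC2, a matricellular protein of the stem cell signature, was at 16.8 ± 2.14 CPM in knockout-labelled and 53.8 ± 4.13 CPM in WT libraries (SD, n = 3 each; log2 -1.68, adjusted p = 7.82e-14, edgeR). JUN, a subunit of AP-1, was at 120 ± 4.66 CPM in knockout-labelled and 68.4 ± 3.18 CPM in WT libraries (SD, n = 3 each; log2 0.81, adjusted p = 7.15e-11, edgeR). The genes of this list with the largest log2 values, named after their values were seen, were TNFRSF19 (4.15, adjusted p = 2.18e-07) and FGF20 (2.88, adjusted p = 7.56e-11). TNFRSF19 had 31, 38 and 45 counts in knockout-labelled libraries and 3, 1 and 2 in WT libraries, and passed the low-count filter only through the knockout-labelled group. The targets therefore split. Among the members LEF1, SP5, NKD1, NOTUM, DKK4 and APCDD1 were higher, AXIN2, RNF43 and ZNRF3 did not pass the test and TCF7 was lower. In the list 14 genes were lower, LGR5, EPHB3 and SMOC2 among them, and 8 were higher. The list was drawn from several tissues, and its genes also answer to other pathways.

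**Figure D4:**
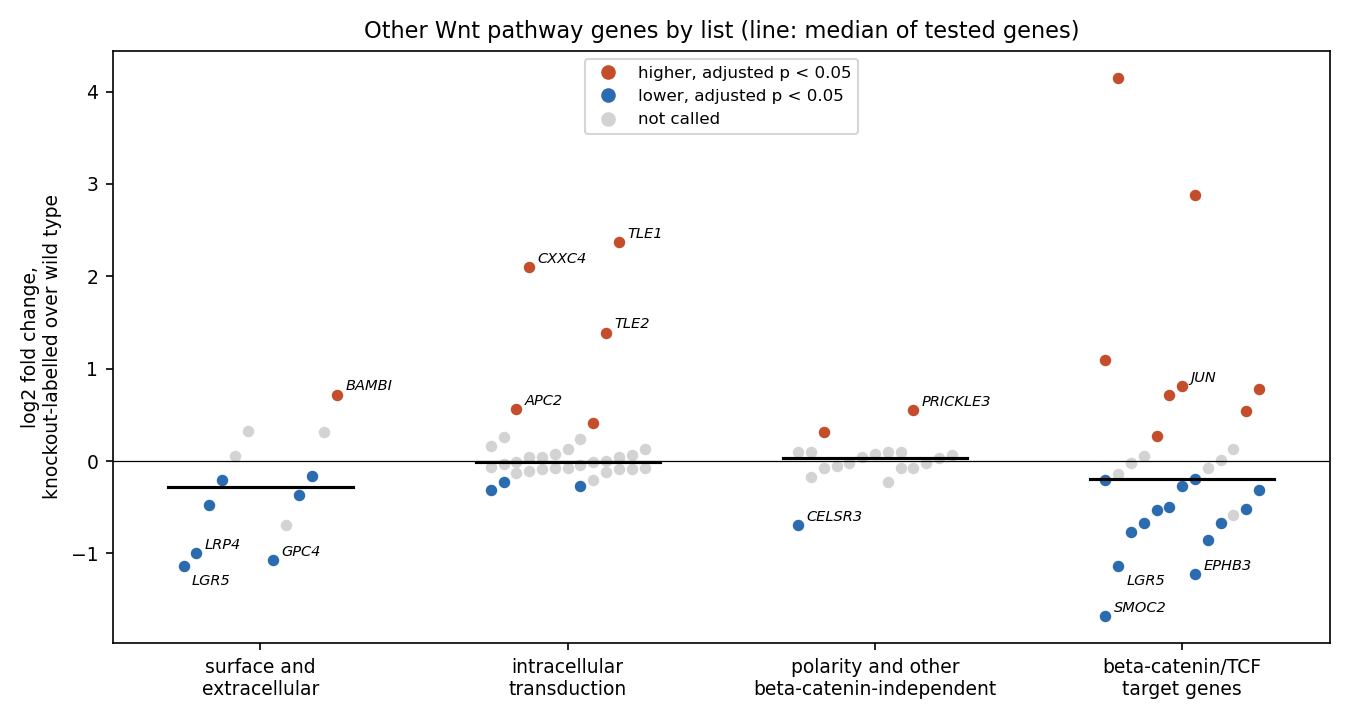
Log2 fold change (knockout-labelled over WT) of every tested gene in the 4 pathway lists, 1 point per gene, red where higher and blue where lower at an adjusted p of 0.05, grey where not called, with the list median as a bar. The medians are -0.29 for surface modifiers, -0.01 for intracellular transducers, 0.03 for planar polarity genes and -0.19 for target genes, with TLE1 at 2.37 and SMOC2 at -1.68 among the called genes.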

How the data were processed

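The files hold a count table of RNA-seq reads per gene for 6 libraries, deposited by the authors as raw counts with no normalization. Per the submitters' processing notes, reads were aligned with HISAT2 2.0.5 and counted with featureCounts 1.5.0-p3; those notes list the build mm10, whereas the gene identifiers are human Ensembl identifiers and the deposited coordinates of all 60 members equal human GRCh38 gene models, which are used here. Of the counting step, the strand setting, the annotation release and the treatment of multi-mapping reads were not stated. The 232 of 58967 rows without a gene name, 0.13 to 0.25% of each library's counts, were left out.

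Genes passing edgeR's filterByExpr (minimum count 10) were scaled by TMM and tested with edgeR 4.0.16 (quasi-likelihood, R 4.3.3), knockout-labelled over WT, adjusted by Benjamini-Hochberg over all 15351 genes tested, at a threshold of 0.05. CPM values use the TMM-adjusted library totals, and CPM per kilobase divides them by the deposited gene length. Intervals for pooled counts are exact and cover 95%. Alternatives were other scalings, other filters, DESeq2 1.42.0, limma 3.58.1 (voom), a test against a 1.5-fold change, leaving out each library, and a replicate block. The labels' replicate numbers did not pair the libraries.

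The members and lists were chosen with earlier results of these data known. All members are accounted for, with values in every library for called members and for the 3 most abundant per kilobase of each role, and up to 4 called genes of each list by smallest p. The result of 1 list gene that this rule names is not reported here.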

Additional observations from a re-analysis of the deposited data

How the results depend on the processing

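Of the 15 called members, 10 passed in every alternative in which they were tested (WNT10B was not tested under the filter of 1 CPM). CTNNB1, FZD7, LGR4, NKD1 and TCF7 were lost in the test against a 1.5-fold change, where 8 members were higher and 2 lower, 795 of all genes and 14 of the pathway list genes passed (39 in the main test), and LGR4 also without WT replicate 1. WNT11 passed in limma voom (adjusted p = 0.0491) and without WT replicate 3, and ZNRF3 with total-count or upper-quartile scaling and without WT replicate 2. FZD3 passed with upper-quartile scaling and without knockout-labelled replicate 2, RNF43 without that same library, FZD9 without knockout-labelled replicate 3 or WT replicate 3, and GSK3B without WT replicate 2. DKK1 passed in DESeq2, with no filter and in 5 of the 6 leave-one-out fits, and ROR2 with no filter. In the leave-one-out fits DKK1 could pass the low-count filter only through the knockout-labelled libraries, since no WT library exceeded 0.124 CPM. A difference in DKK1 was thus a condition of being tested in those fits. FXYD3 passed with upper-quartile scaling (log2 0.56, adjusted p = 0.0442) and no filter (0.52, adjusted p = 0.0479), and leaving out each library gave 0.38 to 0.79. With the replicate block, 11 members were higher and 4 lower, 2953 of all genes passed (3735 without) and FXYD3 was at 0.54 (adjusted p = 0.0472); same-numbered libraries correlated at 0.02, -0.08 and -0.10 and 2 of 6 correlated best with their own number. Uncalled members near 0 changed sign: LRP5 was at 0.00 with total counts and -0.05 to 0.00 over the leave-one-out fits, and WNT2B at 0.02 with total counts, 0.02 with upper-quartile, 0.01 in voom, 0.01 with the replicate block and -0.15 to 0.20 over the leave-one-out fits. Over the leave-one-out fits PORCN ranged from -0.10 to 0.03, FZD1 from -0.11 to 0.00, LRP6 from -0.12 to 0.02 and FZD4 from -0.13 to 0.01. For low-count genes, depth limits what could be tested.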
